A study of Mus musculus with 10 samples.

Results

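Chaserr and the 9 genes of the CHD family of chromatin remodellers (Chd1 to Chd9) were followed in Neuro-2a cells after knockdown of Sfpq. These 10 genes, of 23553 in the files, were taken by symbol, with the RefSeq row of the highest mean where a gene had several (only Chd5, which had a pair). The set was chosen because Chaserr was higher in poly(A) RNA, so its poly(A) values are a description with no test; the Chd genes entered as a whole family. Neuro-2a is a mouse neuroblastoma line, given the strain C57BL/6+C57BL/6J+CBA in the labels, and all groups were kept in medium with 2% serum, called a differentiated condition, during reverse transfection with RNAiMAX. The control siRNA targeted luciferase (Luc), which mouse cells lack, and the other siRNA targeted Sfpq, a nuclear RNA-binding protein. There were 3 Luc and 3 Sfpq libraries of poly(A) RNA, and 1 Luc and 1 Sfpq library made after removal of ribosomal RNA (rRNA-depleted). The labels do not say whether replicates came from separate cultures, so a p-value here covers only library-to-library spread, which may be technical. All groups are of 1 cell line, and the sequence of neither siRNA is given in the sources used here. Values are RPKM, that is, reads divided by transcript length and by library size.

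CHD proteins use ATP to slide or evict nucleosomes and share paired chromodomains and an SNF2-type motor. Chd1 and Chd2 travel with transcribing RNA polymerase II, Chd3, Chd4 and Chd5 serve as the motor of the NuRD deacetylase complex, and Chd6 to Chd9 are large proteins that include the disease genes of human CHARGE syndrome (CHD7) and of a form of autism (CHD8). Chaserr is a long noncoding RNA made just upstream of Chd2 on the same strand, and in mouse its loss raises Chd2 in cis; loss of human CHD2 causes epilepsy.

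The starts of the genes that were higher in Sfpq libraries (Chaserr, and Chd5, Chd6 and Chd9, described further on) are shown so that they can be compared. Of the 10 genes, 6 had a promoter in the RefSeq table (build GRCm38.p6, which is not the build of the files). For Chaserr the stretch runs from 250 bases before to 50 bases after the start, chr7:73558346-73558645 on the minus strand, and for the others over the 250 bases before it: chr4:152338401-152338650 (plus strand) for Chd5, chr2:161109087-161109336 (minus strand) for Chd6 and chr8:90828585-90828834 (plus strand) for the first of 2 Chd9 entries. Capitals mark a match, on either strand, to 1 of 6 motifs. The GC box was searched as GGGCGG. The CCAAT box was searched by the letters of its name. The YY1 element was searched as AAGATGGC. The E-box was searched as CACGTG. The TATA box was searched as TATAAA. The CRE was searched as TGACGTCA. Matches of different motifs were allowed to overlap.
Chaserr: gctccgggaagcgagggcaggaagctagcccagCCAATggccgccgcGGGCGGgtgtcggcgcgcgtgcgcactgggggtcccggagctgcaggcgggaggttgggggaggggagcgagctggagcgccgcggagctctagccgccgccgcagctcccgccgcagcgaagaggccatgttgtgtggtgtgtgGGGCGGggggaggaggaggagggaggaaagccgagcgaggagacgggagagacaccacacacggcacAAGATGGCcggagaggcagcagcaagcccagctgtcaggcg
Chd5: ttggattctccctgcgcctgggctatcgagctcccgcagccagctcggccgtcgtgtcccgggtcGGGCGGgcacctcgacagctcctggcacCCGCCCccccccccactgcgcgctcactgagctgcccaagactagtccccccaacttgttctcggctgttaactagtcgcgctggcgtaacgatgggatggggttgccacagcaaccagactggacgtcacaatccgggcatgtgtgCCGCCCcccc
Chd6: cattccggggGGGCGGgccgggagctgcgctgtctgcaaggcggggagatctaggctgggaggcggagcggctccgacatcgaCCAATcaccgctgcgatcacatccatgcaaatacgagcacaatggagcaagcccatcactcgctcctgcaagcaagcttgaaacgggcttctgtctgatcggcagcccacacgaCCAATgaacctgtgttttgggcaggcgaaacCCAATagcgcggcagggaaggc
Chd9: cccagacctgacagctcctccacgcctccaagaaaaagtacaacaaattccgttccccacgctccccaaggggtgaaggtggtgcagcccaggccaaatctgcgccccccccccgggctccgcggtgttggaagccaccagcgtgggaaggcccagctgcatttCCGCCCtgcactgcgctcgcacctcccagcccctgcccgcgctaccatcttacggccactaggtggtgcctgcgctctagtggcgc
The Chaserr stretch was 72.3% G or C, against a median of 52.7% over 32851 promoters of 300 bases. It held 2 GC boxes, 1 CCAAT box and, beginning at base 10 after the start, 1 YY1 element. Of all promoters 35.7% held a GC box, 37.4% a CCAAT box and 2.75% the YY1 element. Chd5 had 3 GC boxes, Chd6 had 1 GC box and 3 CCAAT boxes, and this Chd9 entry had 1 GC box. The E-box (7.15% of all promoters), the TATA box (13.6%) and the CRE (1.79%) were found in none of these 4 windows of 300 bases. No motif searched was shared by the 4 windows except the GC box. It did not mark the genes that were higher: Chd4 and Chd8, which did not pass the test, had 3 GC boxes and 1 CCAAT box in each of their windows (2 for Chd4, 1 for Chd8), and the second Chd9 window had none. A match of letters is a description and not a site.

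Sfpq was reduced from 63.5 ± 8.42 to 5.07 ± 1.27 RPKM (SD, n = 3) in poly(A) RNA, a log2 difference of -3.54 (SE 0.17, limma adjusted p = 1.56e-06), and from 30.8 to 4.43 RPKM in the rRNA-depleted libraries. These values are of the Sfpq row with the highest mean, a noncoding transcript record of the gene. With the mean of all Sfpq rows the poly(A) log2 difference was -3.47. Steps between low values put the relative depth of the poly(A) libraries between 0.628 (Sfpq replicate 1) and 1.28 (Luc replicate 3) times that of Luc replicate 1. On the same scale both rRNA-depleted libraries were deeper (2.64 for Luc, 2.65 for Sfpq). That takes the smallest step as 1 read: 49.0% (Luc) and 46.4% (Sfpq) of their low values lay midway between steps of the poly(A) unit, against 1.69% to 3.96% in poly(A) libraries. If reads could count in part there, their depth is overstated up to 2-fold. The absolute depth is unknown. Luc replicate 3 correlated at 0.985 and 0.979 with the other Luc libraries, which correlated at 0.996 (Pearson, log2 values of the genes tested). Of 12 markers of sympathetic neuroblasts, the lineage of the line, 10 reached 1 RPKM in every poly(A) library, with a sum of 541 to 599 RPKM in Luc and 455 to 467 in Sfpq libraries. Fibroblast markers (9 genes, 8 of them under 1 RPKM in all libraries) summed to 1.84 to 1.87 in Luc and 2.75 to 3.32 in Sfpq libraries, with Lum, Thy1 and Fap at 0 in poly(A) RNA. Within that list Pdgfrb, a growth factor receptor gene, averaged 0.877 ± 0.119 RPKM in Luc and 1.96 ± 0.126 in Sfpq poly(A) libraries (SD, n = 3) and rose with limma adjusted p = 0.000728. Pdgfra (not called), Col1a1 and Col1a2 (both under the filter) had all Sfpq above all Luc values. The same held for 28.2% of all genes tested. The poly(A) means of Col1a1 (0.0636 in Luc, 0.128 in Sfpq) and Col1a2 (0.00713 and 0.0255 RPKM) were near 0. Dcn, also under the filter, went the other way, with overlapping groups and means of 0.523 (Luc) and 0.279 (Sfpq) RPKM. In rRNA-depleted RNA the collagen genes were lower in Sfpq: Col1a1 had 0.390 (Luc) and 0.163 (Sfpq) RPKM, and Col1a2 0.408 and 0.127. Pdgfra (0.248 and 0.534) and Pdgfrb (1.09 and 2.22) were higher in Sfpq there. Glial (8 genes), blood (6 genes) and epithelial (6 genes) markers summed to at most 1.77, 0.0943 and 1.33 RPKM, with Sox10, Csf1r and Krt5 at 0 in poly(A) RNA. Their part in the results was not tested. In bulk RNA, fewer cells with a transcript and less of it per cell cannot be told apart.

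Chaserr was the member that differed most between the groups in poly(A) RNA. Its row, NR_037569, had 1.58, 1.502 and 2.27 RPKM in Luc replicates 1 to 3 and 9.93, 9.80 and 9.36 RPKM in Sfpq replicates 1 to 3. The groups did not overlap, and the lowest Sfpq library lay far above Luc replicate 3, the highest of the Luc libraries. The means were 1.78 ± 0.421 and 9.70 ± 0.301 RPKM (SD, n = 3), a 5.44-fold difference, and the difference on the log2(RPKM + 0.5) scale was 2.17. Leaving out 1 library at a time gave 2.09 to 2.32.

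In the rRNA-depleted libraries the Chaserr row was listed at 0 RPKM in both the Luc and the Sfpq library, although their steps did not show them to be shallower than the poly(A) libraries. No direction for Chaserr can be read from that preparation. Such zeros were rare but not peculiar to Chaserr: of 592 noncoding rows that reached 1 RPKM in every poly(A) library, 22 (3.72%) were listed at 0 in both rRNA-depleted libraries, as were 10 of 14203 coding rows (0.0704%). Among the coding ones were Rbm42, an RNA-binding protein gene with 24.9 to 43.1 RPKM in the poly(A) libraries, and Ptpmt1, a mitochondrial phosphatase gene with 24.8 to 33.8. Gapdh, the glycolytic enzyme gene used in nearly every cell, had 899 to 1371 RPKM in poly(A) and 15.3 and 13.3 RPKM in rRNA-depleted libraries, whereas Actb (cytoplasmic actin) had 894 to 1088 and then 1913 and 1498. These 4 genes were chosen after their values were seen. A listed 0 is hence not shown to be absence of Chaserr RNA, and no fold between groups was formed from it.

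**Figure D1:**
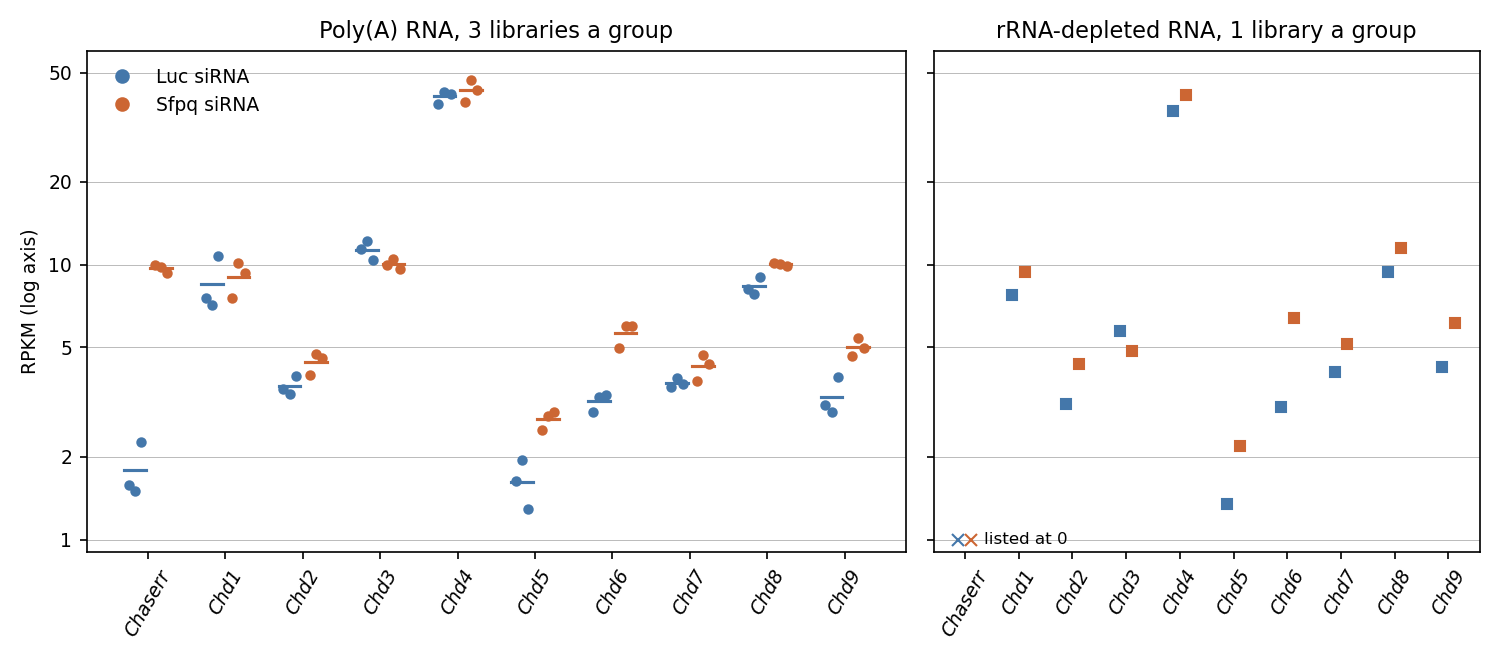
RPKM of Chaserr and the 9 Chd genes on a log axis, in poly(A) RNA (left; each dot is 1 library, bars are means of 3) and in rRNA-depleted RNA (right; each square is 1 library, and crosses at the foot of the axis stand for values listed at 0). The Sfpq dots of Chaserr (9.36 to 9.93) lie above all its Luc dots (1.502 to 2.27), Chd4 is the highest of the family in both groups, and Chaserr is listed at 0 on the right.

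Chd2, the neighbour that Chaserr is known to restrain in mouse, was slightly higher in the Sfpq libraries but did not pass the test. Its RPKM was 3.52, 3.39 and 3.94 in Luc and 3.98, 4.73 and 4.58 in Sfpq libraries. All Sfpq values lay above all Luc values, by a narrow margin between Luc replicate 3 and Sfpq replicate 1. The log2 difference of 0.26 (SE 0.12, 95% interval -0.01 to 0.52) did not pass the test (limma adjusted p = 0.108). Without Luc replicate 3 it was 0.31 and passed (limma adjusted p = 0.0323). After rRNA depletion Chd2 had 3.10 (Luc) and 4.37 (Sfpq) RPKM, a log2 ratio of 0.43.

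On the RPKM scale, which is per length, Chaserr and Chd2 changed places in the order of levels, with the limit that their spans overlap. The level of Chaserr was 0.449, 0.443 and 0.576 times that of Chd2 in the Luc libraries and 2.50, 2.07 and 2.04 times in the Sfpq libraries. Chaserr was the lower of the pair in all 3 Luc and the higher in all 3 Sfpq poly(A) libraries. On the log2(RPKM + 0.5) scale the gap of Chaserr over Chd2 went from -0.86 ± 0.157 to 1.05 ± 0.146 (SD, n = 3), a shift of 1.91. The rise of Chaserr chose the set, so this shift was not tested. The RefSeq gene table (GRCm38.p6) places both genes next to each other with overlapping spans, so reads of the shared stretch cannot be told apart by RPKM, and whether the authors' counting used strand is not given in the sources used here. Of the other close neighbours with a row, Rgma, a guidance molecule gene on the far side of Chd2, and Gm4971 and Fam174b beyond Chaserr were listed at 0 in all 6 poly(A) libraries, which is not shown to be absence. In rRNA-depleted RNA the pseudogene Gm4971 had 0.351 (Luc) and 0.131 (Sfpq) RPKM, Fam174b was listed at 0 (Luc) and 0.00582 (Sfpq), and Rgma at 0 in both.

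**Figure D2:**
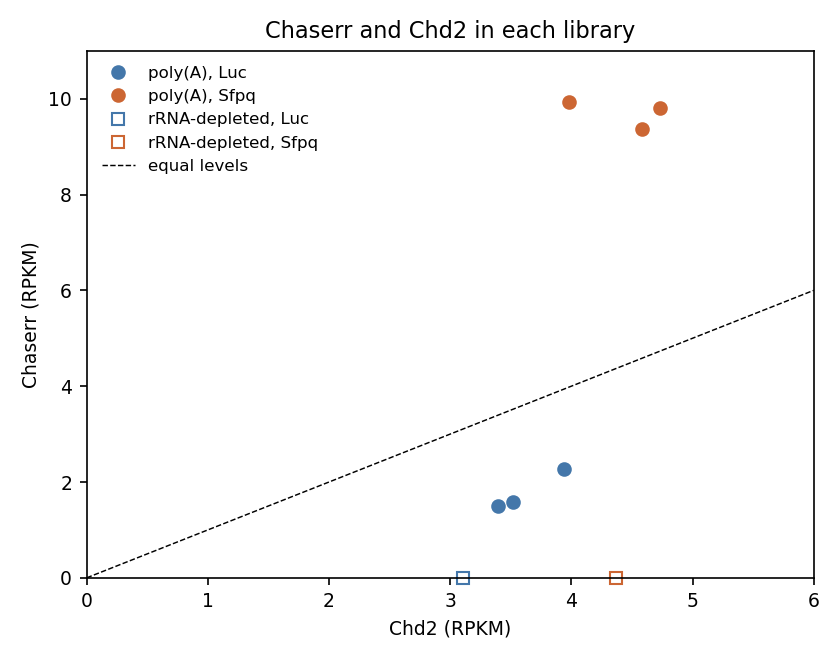
Chaserr against Chd2, both in RPKM, with 1 point per library (dots for poly(A), open squares for rRNA-depleted RNA) and a dashed line of equal levels. The 3 Luc dots lie below the line and the 3 Sfpq dots above it, while Chd2 spans only 3.39 to 4.73 in poly(A) RNA; both squares sit at a Chaserr value of 0.

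Across the family, 3 of the 9 Chd genes (33.3%) rose in poly(A) RNA at an adjusted p under 0.05, where 21.3% of all 11727 genes tested rose; they were Chd5, Chd6 and Chd9. None of the 9 fell with limma, where 18.6% of all genes did. At an unadjusted p under 0.05 the counts were 4 higher and 0 lower. For such unadjusted counts, here and in the lists below, the share of all genes is not given. In either direction 40.0% of all genes tested were called. All Sfpq libraries lay above all Luc libraries for 5 of the 9 (55.6%), against 28.2% of all genes, and all below for 0, against 24.7%. The median log2 difference of the 9 was 0.26, beside 0.05 for all genes tested. As the contrast is that of the rule, these counts describe the family only. All 10 members passed the filter on low values. The count of higher Chd genes was 5 without Luc replicate 3, where Chd2 and Chd8 were added, and 2 without Sfpq replicate 2, where Chd9 was lost. The share of all genes called in those runs is not given here.

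Chd1, the other member of the elongation-linked pair with Chd2, had 7.58, 7.14 and 10.8 RPKM in Luc and 7.56, 10.1 and 9.33 in Sfpq libraries. Luc replicate 3 was the highest of the 6 and the groups overlapped. The log2 difference was 0.09 (SE 0.17, 95% interval -0.29 to 0.47, limma adjusted p = 0.691). The rRNA-depleted values were 7.79 (Luc) and 9.37 (Sfpq) RPKM.

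Of the NuRD motors, only Chd5 passed the test. Chd5 is expressed mainly in neurons and is a tumour suppressor in human neuroblastoma. Its RPKM was 1.63, 1.94 and 1.29 in Luc and 2.51, 2.82 and 2.90 in Sfpq libraries, with no overlap. Its mean rose 1.69-fold (log2 difference 0.62, SE 0.14, limma adjusted p = 0.00725). The rRNA-depleted values were 1.35 (Luc) and 2.20 (Sfpq) RPKM. The other Chd5 row, another transcript record of the gene, had 1.58, 1.89 and 1.24 RPKM in Luc and 2.50, 2.75 and 2.80 in Sfpq libraries.

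Chd4, the main NuRD motor of most cells, was the most abundant member in every library. It had 38.5, 42.6 and 41.9 RPKM in Luc and 39.2, 47.0 and 43.1 in Sfpq libraries, and the groups overlapped. Its log2 difference was 0.07 (SE 0.10, 95% interval -0.17 to 0.30, limma adjusted p = 0.628), and 36.2 (Luc) and 41.4 (Sfpq) RPKM were found in rRNA-depleted RNA. Chd3, its close relative, had 11.4, 12.2 and 10.4 RPKM in Luc and 9.95, 10.5 and 9.63 in Sfpq libraries. Its groups overlapped in 1 Sfpq library, which lay above Luc replicate 3. The log2 difference of Chd3 was -0.17 (SE 0.10, 95% interval -0.40 to 0.07, limma adjusted p = 0.230), and it was the only member with a negative one. In rRNA-depleted RNA Chd3 had 5.74 (Luc) and 4.84 (Sfpq) RPKM, both below all its poly(A) values.

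Among Chd6 to Chd9, Chd6 and Chd9 rose. Chd6, which has been tied to the oxidative stress response, had 2.92, 3.29 and 3.34 RPKM in Luc and 4.99, 5.96 and 5.99 in Sfpq libraries. Every Sfpq library lay well above the highest Luc library, and the mean rose 1.77-fold (log2 difference 0.74, SE 0.12, limma adjusted p = 0.00129). The rRNA-depleted pair had 3.04 (Luc) and 6.38 (Sfpq) RPKM, a ratio of 2.10. Chd9, the least studied of this subfamily, had 3.10, 2.91 and 3.90 RPKM in Luc and 4.67, 5.42 and 4.98 in Sfpq libraries. These did not overlap either, and the mean rose 1.52-fold (log2 difference 0.55, SE 0.13, limma adjusted p = 0.00955). Without Sfpq replicate 2 the Chd9 difference was 0.49 and missed the threshold (limma adjusted p = 0.0511). Chd9 had 4.26 (Luc) and 6.13 (Sfpq) RPKM in rRNA-depleted RNA.

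The disease genes of this subfamily differed less. Chd8 had 8.19, 7.83 and 9.002 RPKM in Luc and 10.2, 10.0 and 9.92 in Sfpq libraries, so that its groups did not overlap. Its log2 difference of 0.26 (SE 0.10, 95% interval 0.03 to 0.49) did not pass after adjustment (limma adjusted p = 0.0725), but was 0.31 and passed without Luc replicate 3 (limma adjusted p = 0.0117). Chd7 had 3.59, 3.88 and 3.68 RPKM in Luc and 3.79, 4.69 and 4.34 in Sfpq libraries, with 1 Sfpq library inside the Luc range (log2 difference 0.17, SE 0.12, 95% interval -0.09 to 0.44, limma adjusted p = 0.260). The rRNA-depleted values were 9.41 and 11.5 RPKM for Chd8 and 4.07 and 5.13 for Chd7, Luc before Sfpq.

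In rRNA-depleted RNA, with 1 library per group and no test, 8 of the 9 Chd genes (88.9%) had a log2 ratio above 0, as did 48.3% of the 11386 genes compared. The exception was Chd3 (-0.23), which was also the exception in poly(A) RNA. The largest ratios on the log2(RPKM + 0.5) scale were those of Chd6 (0.96), Chd5 (0.54), Chd9 (0.48) and Chd2 (0.43), and the others lay between 0.19 (Chd4) and 0.30 (Chd7). Chd6 alone was past a 1.5-fold difference on that scale, which is 1 of 9 (11.1%) against 7.86% of all genes compared. The median over the 9 was 0.30, and over all genes compared it was -0.02. Libraries of the preparations may stem from the same RNA, which the labels do not say.

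**Figure D3:**
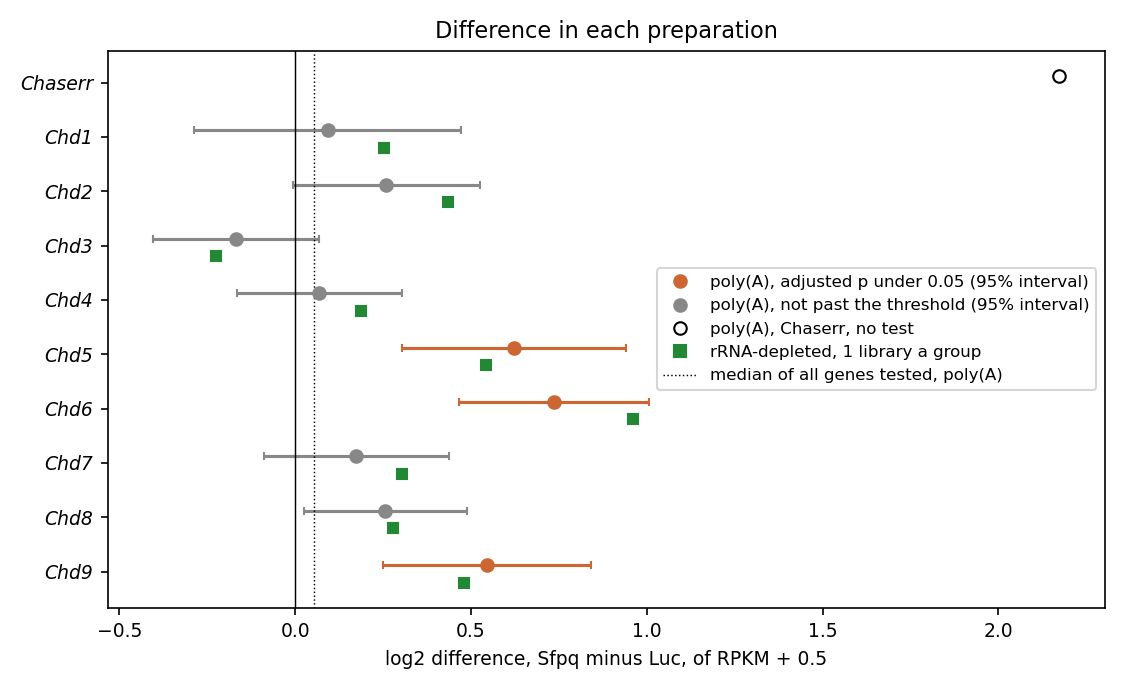
Log2 difference, Sfpq minus Luc, of RPKM + 0.5 for each member: circles with 95% intervals for poly(A) RNA (orange past the threshold, grey not, open for Chaserr without a test) and squares for the single rRNA-depleted pair. The dotted line is the median of all genes tested in poly(A) RNA (0.05). Chd5, Chd6 and Chd9 lie furthest to the right of the Chd genes in both preparations, and Chd3 lies left of 0 in both.

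The order of levels within the set was led by Chd4 in both groups. In Luc poly(A) libraries it ran Chd4 (41.0), Chd3 (11.3), Chd1 (8.49), Chd8 (8.34), Chd7 (3.72), Chd2 (3.62), Chd9 (3.30), Chd6 (3.18), Chaserr (1.78) and Chd5 (1.62), as mean RPKM. Chd3, Chd1 and Chd8 had ranges that overlapped from each to the next, as did Chd7, Chd2, Chd9 and Chd6, and likewise Chaserr and Chd5. Chd4 stood apart from Chd3, Chd8 from Chd7, and Chd6 from Chaserr. In Sfpq libraries Chaserr (9.70) was among Chd8 (10.0), Chd3 (10.0) and Chd1 (9.01), and Chd6 (5.65) and Chd9 (5.02) had means above Chd2 (4.43) and Chd7 (4.27). The range of Chd6 overlapped that of Chd9 but lay above those of Chd2 and Chd7, while Chd9 overlapped Chd2. Chd4 made up 47.5% to 50.02% of the summed RPKM of the 9 Chd genes in Luc and 45.1% to 46.4% in Sfpq poly(A) libraries. The share of Chd5, Chd6 and Chd9 together was 9.51% to 9.67% in Luc and 14.0% to 14.6% in Sfpq libraries, and 11.5% and 16.1% in the rRNA-depleted Luc and Sfpq library. These 3 genes were grouped because they were called higher in this poly(A) contrast. Their larger share in Sfpq poly(A) libraries follows from that choice and is a description only.

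Of 5 lists of partners and relatives of the CHD proteins, each is to be read beside the 21.3% of all genes tested that rose and the 18.6% that fell. The counts at unadjusted p have no such share beside them, so no result about a list is read from them. Of the NuRD subunits other than Chd3 to Chd5, 1 of 12 rose (8.33%) and 2 fell (16.7%), with a median log2 difference of 0.11. At an unadjusted p under 0.05 (limma) 1 was higher and 3 were lower. Cdk2ap1, a small NuRD subunit that also binds Cdk2, had 51.7, 54.2 and 60.7 RPKM in Luc and 10.0, 15.0 and 15.3 in Sfpq libraries, far below without overlap (log2 difference -2.03, SE 0.16, limma adjusted p = 1.94e-05). Its rRNA-depleted values were 19.1 and 4.001 RPKM. Mbd3, the methyl-CpG-binding-like subunit, fell by 0.47 on the log2 scale (limma adjusted p = 0.0401), while the histone-binding subunit Rbbp4 rose from 83.7 ± 7.08 to 113 ± 7.16 RPKM (SD, n = 3; log2 difference 0.44, limma adjusted p = 0.00888). The partners of Chd4 in the ChAHP complex had 2 of 4 higher and 0 lower with limma (2 and 0 at unadjusted p under 0.05). These were Adnp, a homeobox zinc-finger gene, with 22.8, 21.7 and 27.4 RPKM in Luc and 32.4, 33.7 and 33.9 in Sfpq libraries (no overlap; log2 difference 0.47, limma adjusted p = 0.00827), and the heterochromatin protein gene Cbx1 (0.31, limma adjusted p = 0.0351).

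Elongation factors that work with Chd1 had 2 of 12 higher (16.7%), 0 lower with limma (2 and 0 at unadjusted p under 0.05) and a median of 0.12. Supt6, a histone chaperone of elongating polymerase, had 14.9, 14.6 and 14.7 RPKM in Luc and 19.2, 20.4 and 19.9 in Sfpq libraries, tight groups without overlap (log2 difference 0.41, SE 0.09, limma adjusted p = 0.00692). Rtf1, a Paf1-complex subunit, rose by less (0.35, limma adjusted p = 0.0283). Partners of Chd7 and Chd8 had 2 of 12 higher (16.7%), the histone methyltransferase subunit Ash2l (0.30, limma adjusted p = 0.0243) and the beta-catenin gene Ctnnb1 (0.29, limma adjusted p = 0.0309), and 0 lower with limma (6 and 0 at unadjusted p under 0.05), with a median of 0.26. As the share of all genes at that unadjusted threshold is not given, the 6 cannot be read as particular to these partners. Of the other ATPases of the SNF2 family, 4 of 21 tested rose (19.0%) and 2 fell (9.52%), with a median of 0.05. Their counts at an unadjusted p under 0.05 (limma) were 7 higher and 2 lower. Smarca2, an alternative motor of the SWI/SNF complex, had 5.31, 6.21 and 10.5 RPKM in Luc and 2.28, 3.66 and 3.62 in Sfpq libraries, without overlap although Luc replicate 3 was far above the other Luc libraries (log2 difference -1.05, SE 0.24, limma adjusted p = 0.00768). Ino80, the motor of the INO80 complex, rose from 5.34 ± 0.982 to 8.69 ± 0.820 RPKM (SD, n = 3; log2 difference 0.66, limma adjusted p = 0.00557), and Rad54b, a recombination motor, by 0.38 (limma adjusted p = 0.0390).

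These shares of higher genes were below the 21.3% of all genes tested in 4 of the 5 lists, the shares of lower genes were below the 18.6% in all 5, and the ChAHP list has 4 genes only, so no list is set apart by its counts. Single libraries decided several counts, but the share of all genes called in each such run is not given here. Whether the changes in count are particular to these lists can therefore not be read from them. The higher SNF2 ATPases numbered 9 without Luc replicate 3 and 1 when Luc replicate 1 or 2 or Sfpq replicate 2 or 3 was left out, and the lower ones 1 without any library but Luc replicate 3. The higher Chd7 and Chd8 partners numbered 6 without Luc replicate 3 and 0 without any other library. The higher Chd1 partners numbered 4 without Luc replicate 3 and 1 when Luc replicate 1 or Sfpq replicate 2 or 3 was left out. The higher ChAHP partners numbered 3 without Luc replicate 3 and 1 without Luc replicate 1 or any Sfpq library. The higher NuRD subunits numbered 2 without Luc replicate 2 or Luc replicate 3, and the lower ones 1 without any library but Luc replicate 3. The calls of Cdk2ap1, Rbbp4, Adnp, Supt6, Smarca2 and Ino80 held in every alternative run, whereas Mbd3, Cbx1, Rtf1, Ash2l, Ctnnb1 and Rad54b each lost theirs in at least 1.

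**Figure D4:**
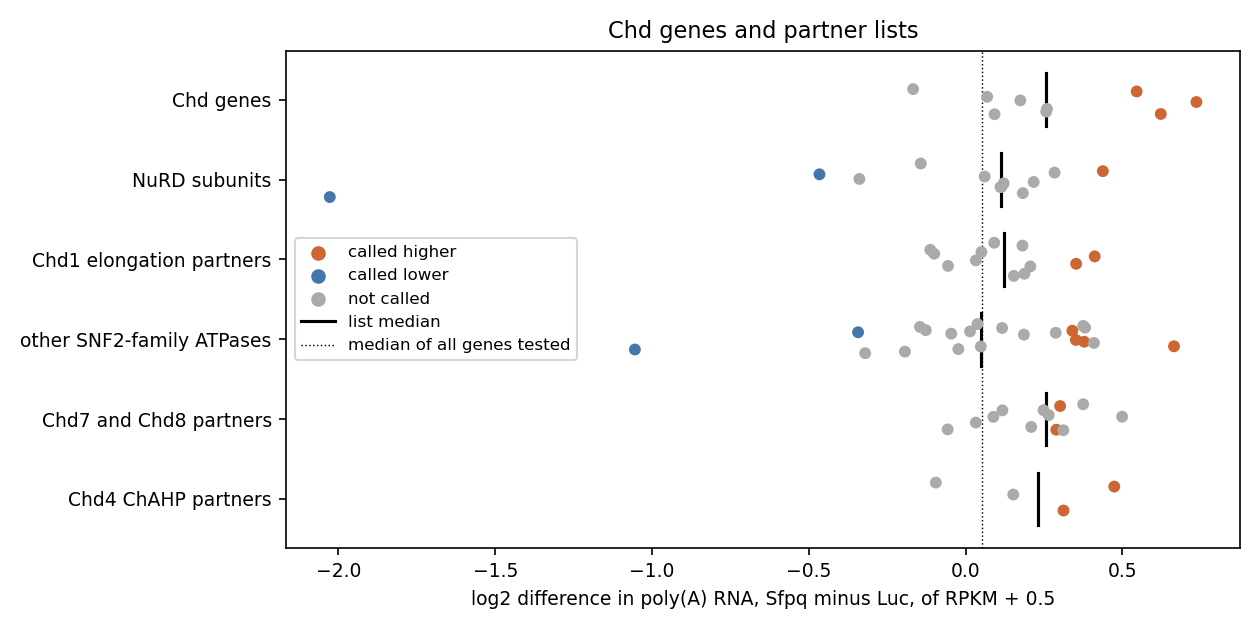
Log2 difference in poly(A) RNA, Sfpq minus Luc, of RPKM + 0.5, with 1 dot per tested gene for the 9 Chd genes and the 5 partner lists (vertical jitter only separates dots); orange dots rose, blue dots fell, grey dots did not pass, black bars are list medians and the dotted line is the median of all genes tested. Cdk2ap1 (-2.03) and Smarca2 (-1.05) lie furthest to the left, and the 3 orange Chd dots lie between 0.55 and 0.74.

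Likeness to the pattern of Chaserr was measured as the Euclidean distance between log2(RPKM + 0.5) values centred on the Luc poly(A) mean, over 8 libraries, for 10969 other genes whose mean reached 1 RPKM. The nearest were the noncoding RNA BC065397 (distance 2.00), Sh3bp1 (2.06), the semaphorin gene Sema3f (2.14), the lectin gene Cd209c (2.15) and the small GTPase gene Rab13 (2.15). Their means in Sfpq poly(A) libraries were 2.60 to 3.88 times those in Luc libraries, less than the 5.44 of Chaserr. On the log2(RPKM + 0.5) scale the nearest gene, BC065397, differed by 1.15 in poly(A) RNA and Chaserr by 2.17. Nearest therefore does not mean alike in size. BC065397 was, like Chaserr, listed at 0 in both rRNA-depleted libraries, and Cd209c had 0.01011 (Luc) and 0.01005 (Sfpq) RPKM there. Unlike Chaserr, the remaining genes were above 0 there and higher in the Sfpq library. Luc before Sfpq, Sh3bp1 had 0.313 and 0.927 RPKM, Sema3f 0.065 and 0.312, and Rab13 0.790 and 2.33. The listed zeros of Chaserr entered this distance, which therefore favours genes at or near 0 in rRNA-depleted RNA. BC065397, Sema3f and Cd209c had Luc poly(A) means under 1 RPKM (0.985, 0.870 and 0.991). These genes were picked by the contrast itself, so no test is given for them.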

How the data were processed

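The authors deposited RPKM for each RefSeq transcript, in a separate file for every RNA library (per the file headers). The submitters' processing notes name TopHat2 2.0.10 and build mm9. Not given in the sources used here are the RPKM program, its annotation, strand use and multi-match handling. Polymerase II immunoprecipitation is not analysed here. Groups and replicate numbers follow the sample titles; for Sfpq poly(A) replicate 2 the description gives another number.

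Of 30978 rows, 30507 (98.5%) were named through a RefSeq gene table (GRCm38.p6), used for names and neighbours only. Poly(A) groups were compared with limma 3.58.1 (R 4.3.3, trended prior) on log2(RPKM + 0.5) for genes averaging 0.5 RPKM or more, Benjamini-Hochberg adjusted over all 11727; the fold scale understates changes of low genes. This step was first tested on simulated data. Relative depth came from whole-number ratios between low values (up to 20, natural log tolerance 0.002), matched by 84.4% to 91.3% of pairs. With no read counts, precision comes from replicates alone, and no detection limit can be given. The rRNA-depleted pair was described by log2 ratios, with the same minimum. Promoters and motifs came from RefSeq tables, with Python 3.11.15.

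The members and lists were chosen with earlier results of these data known. Named genes were all members, Sfpq, the 2 nearest neighbours with a row on each side of Chaserr, the 3 largest called genes of each partner list and the 5 nearest patterns. Of 23 other SNF2 ATPases written, 22 were found and 21 tested. Alternatives were pseudocounts of 0.1 and 1, no filter or a minimum of 2 RPKM, 2 other scalings, limma without trend, a replicate block, the mean of a gene's rows and leaving out each library.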

Additional observations from a re-analysis of the deposited data

Results flagged for a closer look

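Cbx1, a partner of Chd4, was higher in all 3 Sfpq poly(A) libraries (29.7 to 33.8 RPKM) than in all 3 Luc libraries (24.0 to 27.2), but after rRNA depletion its log2 ratio was -0.0784, from 24.0 (Luc) and 22.7 (Sfpq) RPKM. That ratio lay near the median of all genes compared in rRNA-depleted RNA (-0.02), so a fall of Cbx1 cannot be read from it. With 1 rRNA-depleted library per group, the difference between the preparations was not tested.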

How the results depend on the processing

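The log2 difference of Chaserr in poly(A) RNA was 2.40 with a pseudocount of 0.1 and 1.95 with 1, and its gap over Chd2 shifted by 2.12 and 1.72; leaving out a library gave 2.09 to 2.32 and 1.83 to 2.01. Sfpq stayed lower in all alternatives (-3.71 to -3.40 without a library). Leaving out a library gave 2 to 5 higher Chd genes and 0 lower, 1 to 2 higher and 1 to 3 lower NuRD subunits, 1 to 4 higher Chd1 partners, 1 to 9 higher and 1 to 2 lower SNF2 ATPases, 0 to 6 higher Chd7 and Chd8 partners and 1 to 3 higher ChAHP partners. With no filter 2 SNF2 ATPases were higher and 1 NuRD subunit lower, and with a minimum of 2 RPKM 1 SNF2 ATPase was lower, where fewer genes were tested. Median-ratio scaling left 1 higher gene each among Chd7 and Chd8 partners and ChAHP partners. Quantile normalization gave 2 higher and 1 lower NuRD subunit and 4 higher Chd7 and Chd8 partners. For the alternatives and the runs without a library, the share of all genes called is not given here. In rRNA-depleted RNA 2 Chd genes were past 1.5-fold with a pseudocount of 0.1 or quantile normalization. Otherwise the cause was not tested. Deviations of same-numbered poly(A) libraries, taken from their group means, correlated at 0.33, -0.04 and 0.16. These values do not settle whether the numbers pair the libraries. With a replicate block 3 Chd genes were higher, 4 Chd7 and Chd8 partners were higher and 1 SNF2 ATPase was lower. The absolute depth is unknown, so its effect on low values was not tested.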
